A study of Mus musculus with 6 samples.

Results

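The genes described here are those of the phosphoinositide 3-kinase (PI3-kinase) and Akt pathway in mouse blood platelets: the catalytic subunits Pik3cb and Pik3cg, the regulatory subunits Pik3r1 and Pik3r5, the kinases Akt1 and Akt2, and the adaptor Dapp1. They were taken by gene symbol, and all 7 were found among the 24346 symbols of each deposited table. The libraries came from 3 samples of platelets (labelled thrombocytes from blood) homozygous for the integrin β3 knock-in mutation R734C and from 3 samples of wild-type platelets. R734C replaces 1 amino acid in the cytoplasmic tail of the integrin, which together with αIIb binds fibrinogen. According to the series title and design text, the mutation goes with macrothrombocytopenia (few and large platelets), and sequencing was done to find genes whose mRNA level it alters. Strain, age and the number of animals behind each library are not given in the sources used here, so each p-value reflects only how far these 6 samples scatter, and that scatter may be technical.

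Class I PI3-kinases add a phosphate to the membrane lipid PI(4,5)P2 and so make PIP3, which recruits proteins with a pleckstrin homology (PH) domain, among them Akt and Dapp1. Class IA enzymes pair a catalytic subunit such as Pik3cb with a regulatory subunit such as Pik3r1. Class IB pairs Pik3cg with Pik3r5 or Pik3r6 and acts behind G protein-coupled receptors. In platelets the pathway is known for sustaining integrin αIIbβ3 activation and aggregate stability, and phosphatases that remove phosphates from PIP3, together with protein phosphatases that act on Akt, limit it.

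Platelet markers were abundant in every library, with all 14 at a mean of at least 1 FPKM (fragments scaled by transcript length and by the mapped fragments of the library). Their summed level was 54270 to 60369 FPKM in knock-in libraries and 58119 to 60444 FPKM in wild-type libraries. Haemoglobin mRNA made up 20.4%, 3.20% and 4.04% of the total FPKM in knock-in libraries 1, 2 and 3, and 12.8%, 7.2% and 5.71% in wild-type libraries 1, 2 and 3. That total was 758381 to 856863 FPKM in the knock-in and 641278 to 708432 FPKM in the wild type. Rescaling to equal totals was not tested. Markers of leukocytes differed in level, with Lyz2 abundant, Nkg7 and Cd14 at a few FPKM and the others low. Ptprc, the gene of the pan-leukocyte surface protein CD45, reached at most 0.0209 FPKM in the knock-in and 0.0594 FPKM in the wild type. Neutrophil markers summed to 0.219 to 1.90 FPKM in the knock-in and 0.208 to 2.22 FPKM in the wild type (9 of 10 in the tables, with Camp, Elane and Mpo at 0 throughout). B cell markers summed to 0.196 to 0.693 FPKM in the knock-in and 0 to 0.185 FPKM in the wild type (6 of 7 in the tables, with Ms4a1, Cd22 and Pax5 at 0). Of 9 T and NK cell markers, 5 were at 0 throughout, among them Cd3d and Cd3e, and the list summed to 4.95 to 8.83 FPKM in the knock-in and 2.67 to 4.42 FPKM in the wild type, nearly all of it Nkg7. Of 8 monocyte and macrophage markers, Lyz2 stood at 7205 to 9127 FPKM in the knock-in and 7033 to 8240 FPKM in the wild type and Cd14 reached 3.21 FPKM, while the others summed to at most 0.961 FPKM in any library. Itgb3, the gene that carries the mutation, had 870, 803 and 903 FPKM in the knock-in and 1091, 1244 and 1289 FPKM in the wild type (log2 fold change -0.49, limma adjusted p = 0.0190, with the adjusted p above 0.05 in 6 of the 16 alternatives, among them each fit without library 2 or 3 of either group), a level that cannot check a missense genotype. Depth, judged from the worth of 1 fragment at low values, was roughly 7830000 to 9370000 fragments in knock-in and 8710000 to 9300000 fragments in wild-type libraries.

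Promoter sequences are shown for 4 of the genes, to set the most abundant pair, Akt2 and Dapp1, beside the class IB pair, Pik3cg and Pik3r5. Each is the 250 bases before the RefSeq transcript start farthest upstream (build GRCm38.p6, which has the coordinates of mm10), read 5′ to 3′ on the strand of the gene. Capitals mark matches, on either strand, to short motifs. For ETS factors the letters searched were GGAAGT. For the GC box they were GGGCGG. For GATA factors they were AGATAA. The last motif searched was the CCAAT box, by those letters. No capital runs overlap in these windows.
Akt2 (chr7:27591302-27591551, plus strand): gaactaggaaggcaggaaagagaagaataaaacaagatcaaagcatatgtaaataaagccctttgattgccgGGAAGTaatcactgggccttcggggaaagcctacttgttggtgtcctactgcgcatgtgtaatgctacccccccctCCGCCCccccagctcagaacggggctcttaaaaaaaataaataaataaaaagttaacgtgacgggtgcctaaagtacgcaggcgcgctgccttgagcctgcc
Dapp1 (chr3:137981550-137981799, minus strand): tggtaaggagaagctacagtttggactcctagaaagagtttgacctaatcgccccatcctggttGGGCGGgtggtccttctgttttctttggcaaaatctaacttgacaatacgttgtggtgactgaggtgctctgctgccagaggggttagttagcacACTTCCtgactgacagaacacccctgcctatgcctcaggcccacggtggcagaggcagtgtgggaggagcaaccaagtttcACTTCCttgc
Pik3cg (chr12:32208660-32208909, minus strand): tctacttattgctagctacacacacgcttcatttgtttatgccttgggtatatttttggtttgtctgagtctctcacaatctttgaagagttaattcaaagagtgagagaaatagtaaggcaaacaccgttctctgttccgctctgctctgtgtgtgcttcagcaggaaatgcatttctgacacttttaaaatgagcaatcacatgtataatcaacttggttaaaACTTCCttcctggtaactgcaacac
Pik3r5 (chr11:68431875-68432124, plus strand): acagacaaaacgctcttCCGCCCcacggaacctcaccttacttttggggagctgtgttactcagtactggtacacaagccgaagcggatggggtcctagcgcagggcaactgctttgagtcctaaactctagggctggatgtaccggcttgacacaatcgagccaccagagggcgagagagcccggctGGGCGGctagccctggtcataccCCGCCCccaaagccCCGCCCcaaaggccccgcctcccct

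The 4 windows differed in base composition. The window of Pik3r5 was 61.6% G and C with 14 CpG dinucleotides and 4 GC box matches, whereas that of Pik3cg was 38.8% G and C with 3 CpG dinucleotides, no GC box match and 1 ETS match. Akt2 (48.8% G and C) had 1 ETS and 1 GC box match, and Dapp1 (52.4%) had 2 ETS matches and 1 GC box match. The last 4 bases of the Pik3r5 window lie inside its first GENCODE exon. Over all 32851 RefSeq promoter windows of the same length the median was 52.4% G and C with 6 CpG dinucleotides. The letters GGAAGT occurred in 19.7% of those windows, GGGCGG in 32.7%, CCAAT in 33.8% and AGATAA in 9.99%. AGATAA was found in none of the windows of the 7 genes. All 7 genes had a window in the RefSeq table, and that of Pik3cb is not shown because 140 of its 250 bases lie in an exon of the GENCODE vM21 annotation. The windows of Akt1 and Pik3r1 are not shown either. The choice was not by level alone, since Pik3r1 (mean 0.837 FPKM over the 6 libraries) was below Pik3cg (1.29 FPKM).

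The 7 mRNAs covered a wide range of levels, and their order was nearly the same in every library. Akt2 was the most abundant, followed by Dapp1, Pik3cb and Akt1, in each of the 6 libraries. Below them, Pik3cg was above Pik3r1 in knock-in library 3 and in all 3 wild-type libraries, and below it in knock-in libraries 1 and 2, so this pair overlapped in the knock-in. Pik3r5 was last throughout. Among all symbols ranked by FPKM within a library, Akt2 held rank 606 to 766, Dapp1 807 to 940, Pik3cb 1319 to 2178 and Akt1 2556 to 3579. Of the 7 genes, 5 had a mean of at least 1 FPKM over the 6 libraries and were tested. Pik3r1 and Pik3r5 were below that limit and are given as levels only.

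**Figure D1:**
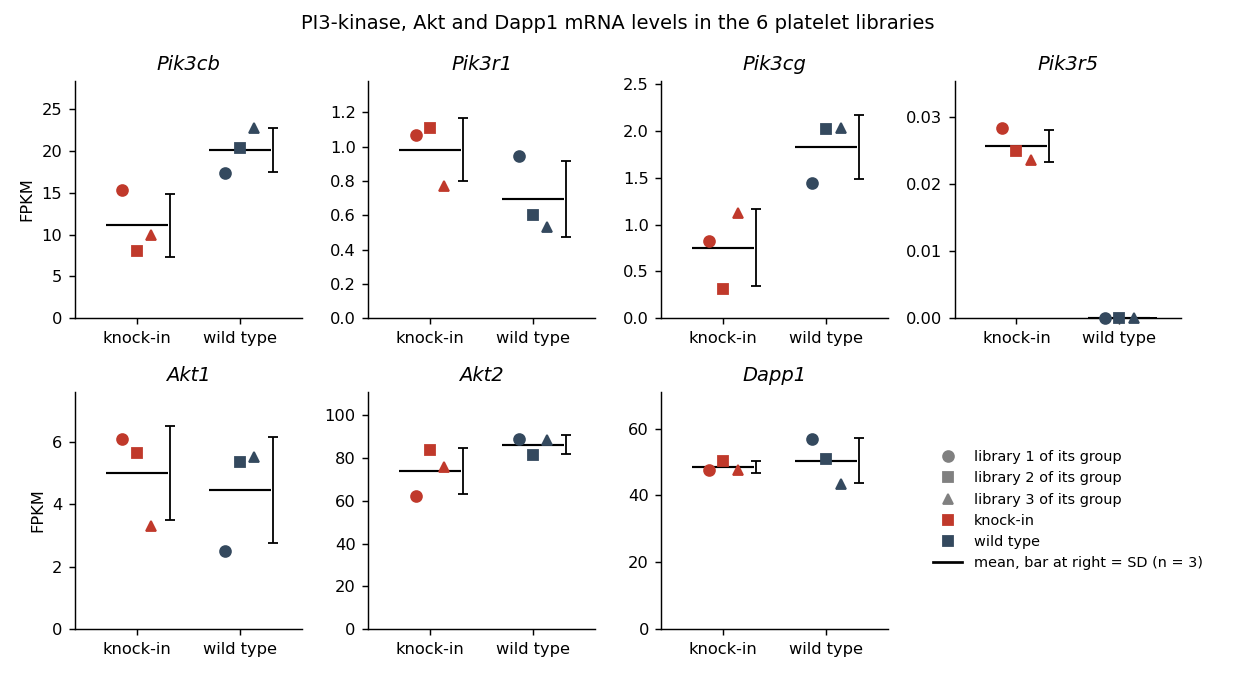
FPKM of the 7 genes in each library, with knock-in libraries in red on the left and wild-type libraries in dark blue on the right of each panel; each panel has its own axis from 0. Lines are group means, and the bars at their right are SD (n = 3). The 3 knock-in libraries lie below the 3 wild-type libraries for Pik3cb and Pik3cg, Pik3r5 lies at 0.0237 to 0.0283 FPKM in the knock-in and at 0 in the wild type, and the groups overlap for the other 4 genes.

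None of the 5 tested genes passed at the adjusted threshold of 0.05 (limma on log2(FPKM + 1), Benjamini-Hochberg over all 4859 genes tested), and 2 of them, Pik3cb and Pik3cg, had an unadjusted p under 0.05, both lower in the knock-in. Over all genes tested, 8.36% passed the adjusted threshold and 25.4% had an unadjusted p under 0.05. In 2 of the 5 every knock-in library lay below every wild-type library, where 15.8% of all genes tested did so and 30.7% had groups that did not overlap in either direction. The median log2 fold change of the 5 was -0.23, against -0.01 over all genes tested. None of the 5 had group means of FPKM + 1 at least 2-fold apart, the limit named in the design text of the series, which 3.11% of genes tested reached. Without the added 1, the mean FPKM of Pik3cg was 2.44 times lower in the knock-in than in the wild type, which is past that limit. With a knock-in mean under 1 FPKM, Pik3cg passed the filter on low values through its wild-type level, which favours a lower knock-in value among the genes tested, so the counts and the median of the 5 are descriptions only. In bulk RNA of this kind, fewer cells of a type and less RNA per cell cannot be told apart.

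Pik3cb encodes the class IA catalytic subunit p110β, the isoform best known for platelet adhesion and thrombus stability in mice. It measured 15.4, 8.06 and 9.92 FPKM in knock-in libraries 1, 2 and 3, and 17.4, 20.4 and 22.7 FPKM in wild-type libraries 1, 2 and 3. All knock-in values were below all wild-type values, with knock-in library 1 closest to the wild type. The means were 11.1 ± 3.79 FPKM in the knock-in and 20.2 ± 2.65 FPKM in the wild type (SD, n = 3 each). On the log2(FPKM + 1) scale the fold change was -0.84 (SE 0.23, 95% interval -1.38 to -0.31), with an unadjusted limma p of 0.00646 and an adjusted p of 0.0621. The call depended on the setting. With only genes of a mean of 5 FPKM or more tested, the fold change was the same and the limma adjusted p was 0.0453. Knock-in library 1, which was also the library richest in haemoglobin mRNA, held the highest Pik3cb value of its group, and without it the fold change was -1.08 (limma adjusted p = 0.0111). The part of haemoglobin mRNA in this value was not tested. Pik3cb lies on chromosome 9 at 99036654 to 99140621 of GRCm38, minus strand, with no exon of another annotated gene over its own.

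Pik3cg encodes p110γ, the class IB catalytic subunit that is activated by G protein βγ subunits behind ADP and other receptors. Its levels were 0.825, 0.307 and 1.12 FPKM in the knock-in and 1.44, 2.02 and 2.03 FPKM in the wild type. The groups did not overlap, and the mean was 0.750 ± 0.411 FPKM in the knock-in and 1.83 ± 0.338 FPKM in the wild type (SD, n = 3 each). At the estimated depth and the length of the longest coding transcript these levels correspond to roughly 38, 16 and 62 fragments in the knock-in and 74, 110 and 107 fragments in the wild type. The log2 fold change of -0.71 (SE 0.28, 95% interval -1.36 to -0.07) did not pass (limma adjusted p = 0.157). With a pseudocount of 0.1 in place of 1 it was -1.31 and with 5 it was -0.25, and it passed in neither case. Leukocytes also express Pik3cg, and their part in its level was not tested. Ptprc reached at most 0.0209 FPKM in the knock-in and 0.0594 FPKM in the wild type, while Lyz2 stood at 7205 to 9127 FPKM in the knock-in and 7033 to 8240 FPKM in the wild type, and Nkg7 reached 8.83 FPKM in the knock-in and 4.42 FPKM in the wild type. The gene lies on chromosome 12 at 32173473 to 32208659, minus strand.

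Class I catalytic mRNA was mostly Pik3cb. Of the summed FPKM of Pik3ca, Pik3cb, Pik3cd and Pik3cg, Pik3cb held 90.7%, 86.8% and 78.9% in the knock-in libraries and 86.3%, 86.9% and 88.4% in the wild-type libraries. The mean share was 85.5% ± 6.04 in the knock-in and 87.2% ± 1.04 in the wild type (SD, n = 3 each), a difference of -1.73 percentage points (two-sided exact permutation p = 0.8, and 1.0 after adjustment over the 3 shares tested). A design of 3 against 3 cannot give an exact p below 0.1. The difference was 1.57 points without knock-in library 3. Pik3ca, the gene of the widely expressed p110α, measured 0.744, 0.917 and 1.52 FPKM in the knock-in and 1.30, 1.02 and 0.946 FPKM in the wild type, with groups that overlapped (log2 fold change -0.03, limma adjusted p = 0.956).

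**Figure D2:**
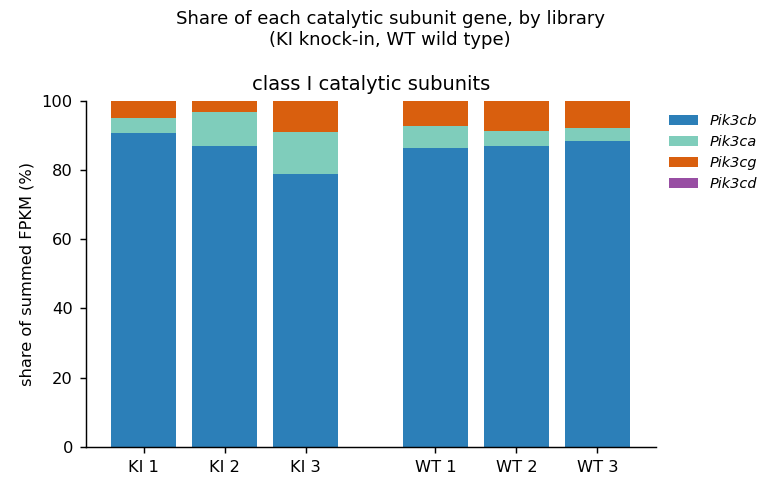
Share (%) of each gene in the summed FPKM of the 4 class I catalytic subunits, 1 bar per library, with knock-in libraries left of wild-type libraries. Pik3cb is the largest share in every library, at 78.9% to 90.7% in the knock-in and 86.3% to 88.4% in the wild type, and Pik3cd is too small to be seen.

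Pik3cd, the gene of the leukocyte isoform p110δ, was at the level of single fragments. It was listed at 0 in knock-in libraries 1 and 2, at 0.0222 FPKM in knock-in library 3, and at 0.0235, 0.0222 and 0.0230 FPKM in the wild type. Multiplied by the relative depth of each library, the 4 values above 0 were equal to 3 significant digits, at 0.0235, so each stood for the same number of fragments. If that number is 1, the implied transcript length is 4800 to 4896 bases, near the longest annotated coding transcript of 4921 bases. The 2 zeros allow up to 0.0797 and 0.0702 FPKM in knock-in libraries 1 and 2 (3 fragments in each library), which is above every value measured, so no difference was detectable at this depth.

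Regulatory subunit mRNA was scarce beside Pik3cb. Pik3r1 encodes p85α and its shorter forms, which stabilise the class IA catalytic subunits and hold them inactive until an SH2 domain is bound. It measured 1.07, 1.11 and 0.771 FPKM in the knock-in and 0.945, 0.602 and 0.531 FPKM in the wild type. Knock-in library 3 lay below wild-type library 1, so the groups overlapped. The means were 0.981 ± 0.183 FPKM in the knock-in and 0.693 ± 0.221 FPKM in the wild type (SD, n = 3 each), and these levels correspond to roughly 59, 69 and 51 fragments in the knock-in and 59, 40 and 34 fragments in the wild type at the length of the longest coding transcript. With no filter on low values the log2 fold change came to 0.23 ± 0.25 (SE), at a limma adjusted p of 0.721. Pik3r1 lies on chromosome 13 at 101680563 to 101768217, minus strand.

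The other class IA regulatory genes were mostly listed at 0. Pik3r2, the gene of p85β, was above 0 in knock-in library 3 (0.233 FPKM) and in wild-type library 3 (0.103 FPKM). Pik3r3, the gene of p55γ, was above 0 in knock-in library 1 (0.221 FPKM) and in wild-type library 3 (0.191 FPKM). Pik3r1 therefore held 82.9%, 100% and 76.8% of the summed FPKM of the 3 genes in the knock-in and 100%, 100% and 64.3% in the wild type. The difference of -1.58 percentage points had a two-sided exact permutation p of 1.0, also after adjustment over the 3 shares, and its sign changed when knock-in library 1 (0.262) or 3 (3.31) or wild-type library 1 or 2 (4.36 for each) was left out.

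Pik3r5 encodes p101, the adaptor that couples p110γ to G protein βγ subunits. It was listed at 0.0283, 0.0249 and 0.0237 FPKM in knock-in libraries 1, 2 and 3 and at 0 in all 3 wild-type libraries. The groups did not overlap, and yet the 3 values above 0 correspond to the same small number of fragments. Multiplied by relative depth (0.882, 1.0 and 1.05 for the 3 knock-in libraries) each gave 0.0250 FPKM, and if that is 1 fragment the implied length is 4504 to 4596 bases, near the 4370 bases of the only coding transcript annotated. On that reading the knock-in had 1 fragment in each library, and the zeros in the wild type allow up to 0.0750, 0.0711 and 0.0734 FPKM (3 fragments in each library). A difference was not detectable at this depth, and with no filter its limma adjusted p was 0.683. Such limits cover counting error only. Pik3r6, the gene of the other class IB adaptor, was listed at 0 in all 3 knock-in libraries and in wild-type library 1 and at 0.0979 and 0.0337 FPKM in wild-type libraries 2 and 3. Pik3r5 and Pik3r6 neighbour each other on chromosome 11, at 68432121 to 68497849 and 68503019 to 68552698, both on the plus strand.

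Akt2, which encodes the Akt isoform best known for insulin signalling and also active in platelets, was the most abundant of the 7. It had 62.3, 83.6 and 75.8 FPKM in the knock-in and 88.9, 81.4 and 88.7 FPKM in the wild type. Knock-in library 2 exceeded wild-type library 2, so the groups overlapped. The mean was 73.9 ± 10.8 FPKM in the knock-in and 86.3 ± 4.29 FPKM in the wild type (SD, n = 3 each), with a log2 fold change of -0.23 (SE 0.13, 95% interval -0.53 to 0.07, limma adjusted p = 0.321). Knock-in library 1 was the lowest, and without it the log2 fold change was -0.11. Akt2 lies on chromosome 7 at 27591552 to 27640826, plus strand, and the annotation holds a pseudogene of it, Akt2-ps, with which reads could be shared.

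Akt1, the broadly expressed isoform, was measured at 6.09, 5.63 and 3.29 FPKM in the knock-in and 2.51, 5.35 and 5.53 FPKM in the wild type. Each group held 1 library well below its other 2, library 3 of the knock-in and library 1 of the wild type. The means of 5.0 ± 1.5 FPKM in the knock-in and 4.46 ± 1.69 FPKM in the wild type (SD, n = 3 each) did not differ beyond that spread (log2 fold change 0.16, SE 0.32, 95% interval -0.57 to 0.88, limma adjusted p = 0.812), and the sign turned without wild-type library 1 (-0.13). Akt1 lies on chromosome 12 at 112653821 to 112674884, minus strand. As a ratio of FPKM, Akt2 was 10.2 to 23.0 times Akt1 in the knock-in and 15.2 to 35.4 times Akt1 in the wild type, ranges that overlapped.

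Dapp1 encodes Bam32, an adaptor with an SH2 and a PH domain that binds PI3-kinase products and was described first in B cells. Its values were 47.6, 50.4 and 47.5 FPKM in the knock-in and 56.9, 50.9 and 43.4 FPKM in the wild type. The knock-in values all lay within the range of the wild type. The mean was 48.5 ± 1.66 FPKM in the knock-in and 50.4 ± 6.73 FPKM in the wild type (SD, n = 3 each), with a log2 fold change of -0.05 (SE 0.13, 95% interval -0.35 to 0.25, limma adjusted p = 0.873). The sign turned with quantile normalization (0.034) and without wild-type library 1 (0.044). Dapp1 reached 0.603 to 0.764 times the FPKM of Akt2 in the knock-in and 0.490 to 0.640 times in the wild type, while 3 of the 6 B cell markers in the tables were at 0 in every library. Dapp1 lies on chromosome 3 at 137931007 to 137981545, minus strand.

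Genes whose values followed each of the 7 most closely were found by Pearson correlation of log2(FPKM + 1) over the 6 libraries, as a description in which 6 points shared by all genes give high values to many pairs. For Pik3cb they were Myom1 (r = 0.990) and Csgalnact1 (0.989). For Pik3cg they were Atp6v0a2 (0.997) and Ssx2ip (0.993). Pik3r1 was nearest to Crip2 (0.993) and Phactr2 (0.971), and Pik3r5 to Lyrm2 (0.995) and Minos1 (0.994), the last pair resting on single fragments of Pik3r5. Akt1 followed Idua (0.984), Akt2 to Dalrd3 (0.993) and Arhgef1 (0.981), and Dapp1 to Mtss1 (0.978) and Snx5 (0.964).

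The other genes of the pathway were taken from 6 lists of 83 genes, of which 46 were tested. Of these, 2 fell, Ppp2ca and Rasa3, and 0 rose, where 3.99% of all genes tested fell and 4.36% rose. The log2 fold change was below 0 for 35 of the 46, against 51.5% of all genes tested, and its median was -0.17, against -0.01 over all genes tested. Every knock-in library lay below every wild-type library for 11 of the 46, against 15.8% of all genes tested. At an unadjusted limma p under 0.05, 11 of the 46 were lower and 1 was higher, against 25.4% of all genes tested in either direction. The 2 falls became 0 without knock-in library 3 or wild-type library 2, 1 without knock-in library 2 or wild-type library 3, and 4 without knock-in library 1.

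Lipids for the enzymes are made by kinases and transfer proteins in the phosphoinositide supply list, where 0 of 10 tested genes passed. In that list 8 had a log2 fold change below 0 (median -0.25). Of the 10, 3 had an unadjusted limma p under 0.05, all lower, against 25.4% of all genes tested in either direction. Pitpna, a phosphatidylinositol transfer protein gene, had 28.0, 33.9 and 32.2 FPKM in the knock-in and 41.7, 43.3 and 44.5 FPKM in the wild type. The groups did not overlap, and the limma adjusted p was 0.0621, for a log2 fold change of -0.45. Pip4k2a, a kinase gene of the same list, had 31.0, 30.2 and 34.7 FPKM in the knock-in and 45.7, 32.4 and 31.5 FPKM in the wild type (log2 fold change -0.17, limma adjusted p = 0.597). Pip5k1c, which encodes a kinase that makes PI(4,5)P2 and was chosen after its values were seen, averaged 8.92 ± 2.18 FPKM in the knock-in and 16.7 ± 3.87 FPKM in the wild type (SD, n = 3 each; log2 fold change -0.84, limma adjusted p = 0.0586).

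Of the other PI3-kinase subunits, 2 of 12 were tested and 0 passed, with a median log2 fold change of -0.19 (0 at an unadjusted limma p under 0.05). Pik3c2b, a class II enzyme, had 0.809, 1.85 and 0.893 FPKM in the knock-in and 2.13, 1.71 and 1.33 FPKM in the wild type, and the groups overlapped (log2 fold change -0.34, limma adjusted p = 0.516). The phosphatases that remove phosphates from PIP3 and PI(3,4)P2 had 0 of 5 tested genes past the threshold (median -0.29). Of the 5, 1 had an unadjusted limma p under 0.05, lower in the knock-in, against 25.4% of all genes tested in either direction. Inpp5d, the gene of the 5-phosphatase SHIP1 of blood cells, was the most abundant of them. It had 33.7, 34.0 and 45.0 FPKM in the knock-in and 58.6, 45.0 and 40.8 FPKM in the wild type, with groups that overlapped (log2 fold change -0.35, limma adjusted p = 0.269). Inpp5k, another 5-phosphatase gene, averaged 12.8 ± 2.91 FPKM in the knock-in and 18.8 ± 2.77 FPKM in the wild type (SD, n = 3 each) and missed the threshold at a limma adjusted p of 0.151, with a log2 fold change of -0.53.

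Among genes that switch Akt on or off, 1 of 7 tested fell and 0 rose, with a median log2 fold change of -0.43. Of the 7, 4 had an unadjusted limma p under 0.05, all lower, against 25.4% of all genes tested in either direction. The gene that fell was Ppp2ca, which encodes the catalytic subunit of protein phosphatase 2A, a phosphatase known to remove activating phosphates from Akt among many other substrates. It had 102, 107 and 100 FPKM in the knock-in and 184, 183 and 153 FPKM in the wild type. The lowest wild-type value was well above the highest knock-in value. Its fold change was -0.74 ± 0.11 (SE) in log2 units, with a limma adjusted p of 0.00969, and all 3 knock-in libraries lay lower. The adjusted p was 0.0580 without knock-in library 3, 0.0557 without wild-type library 2 and 0.0651 without the variance trend. Exons of Ppp2ca (chromosome 11, 52098681 to 52127778, plus strand) overlap transcripts on the other strand and the microRNA gene Mir3061 on its own strand. Its level is therefore less certain. Its paralogue Ppp2cb did not pass, at 25.5, 14.4 and 18.2 FPKM in the knock-in and 19.3, 27.2 and 18.8 FPKM in the wild type with a log2 fold change of -0.18 at a limma adjusted p of 0.685. Ppp2cb was named after its values were seen.

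In the list of Akt substrates and genes that act after them, such as Rheb, 0 of 7 tested passed. The median log2 fold change was -0.01, and 0 had an unadjusted limma p under 0.05. Bad, a cell death gene whose product Akt phosphorylates, had 16.3, 9.03 and 11.1 FPKM in the knock-in and 12.6, 10.3 and 7.56 FPKM in the wild type (log2 fold change 0.23, limma adjusted p = 0.644). Rheb, a GTPase gene upstream of the kinase mTOR, averaged 8.18 ± 3.15 FPKM in the knock-in and 7.93 ± 1.06 FPKM in the wild type (SD, n = 3 each; log2 fold change -0.01, limma adjusted p = 0.991).

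Like Akt and Dapp1, the PIP3-binding effectors read the lipid, and of 15 tested genes 1 fell and 0 rose (median log2 fold change -0.17). At an unadjusted limma p under 0.05, 3 of the 15 were lower and 1 was higher, against 25.4% of all genes tested in either direction. Rasa3 fell. It encodes a GTPase-activating protein that keeps Rap1 inactive in resting platelets and is itself restrained by PI3-kinase signalling in mice. It had 169, 161 and 173 FPKM in the knock-in and 249, 225 and 227 FPKM in the wild type. The groups did not overlap (log2 fold change -0.48, SE 0.09, limma adjusted p = 0.0190; lower in 3 of 3 knock-in libraries). Its adjusted p lay between 0.0114 and 0.0996 over the 16 alternatives and was above 0.05 in 6 of them, among them each fit without knock-in library 2 or 3 or wild-type library 2 or 3. Skap2, an adaptor gene of integrin signalling and the most abundant of the list, had 580, 696 and 660 FPKM in the knock-in and 844, 731 and 751 FPKM in the wild type, and its log2 fold change of -0.27 missed the threshold at a limma adjusted p of 0.145.

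**Figure D3:**
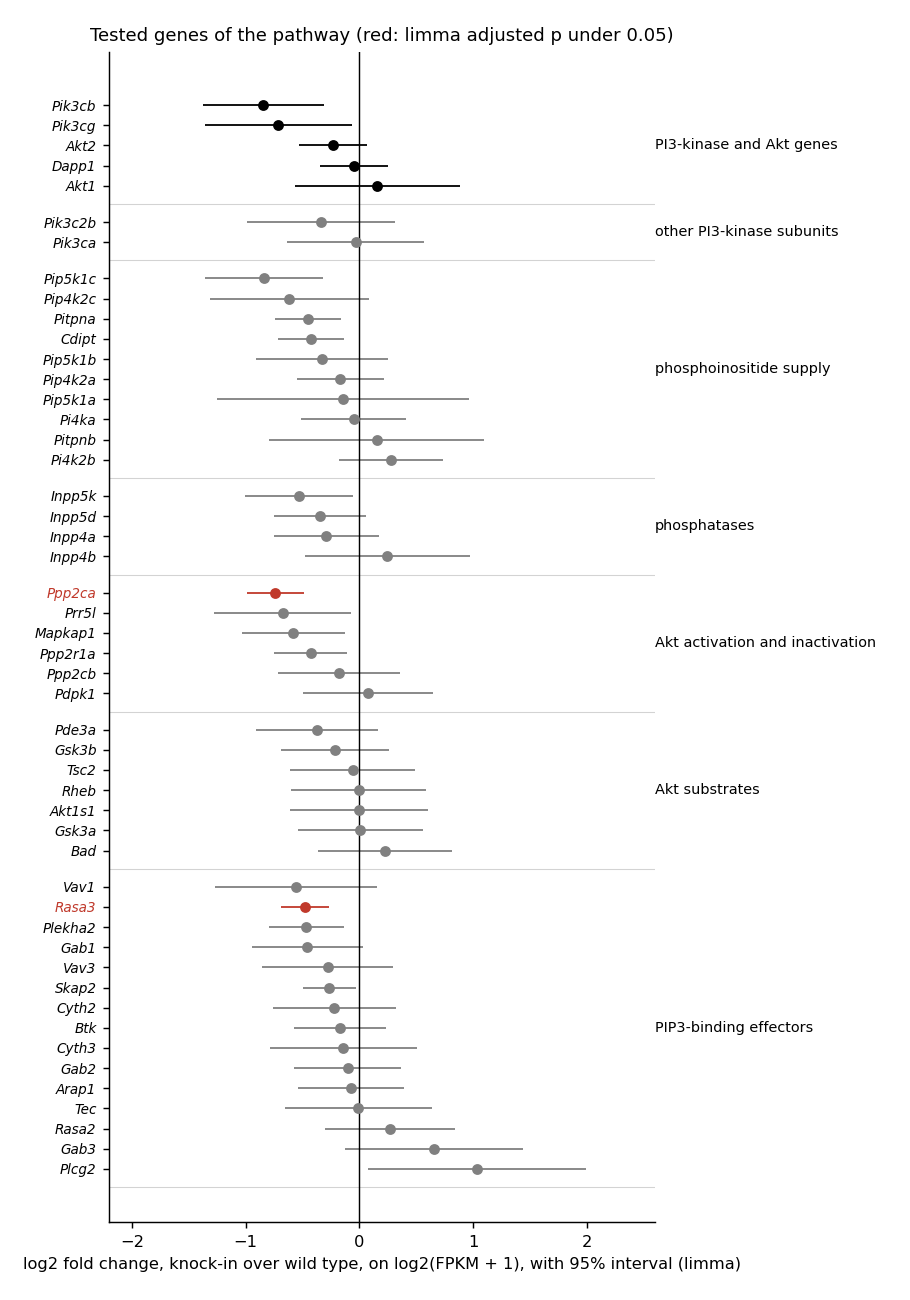
Log2 fold change, knock-in over wild type, on the log2(FPKM + 1) scale for the 5 tested genes of the PI3-kinase and Akt set (black, top) and 44 of the 46 tested genes of the 6 other lists (grey), with limma 95% intervals. Ppp2ca and Rasa3, in red, are the 2 pathway genes past an adjusted p of 0.05; Pik3cb at -0.84 and Pik3cg at -0.71 lie farthest to the left among the 5.

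**Figure D4:**
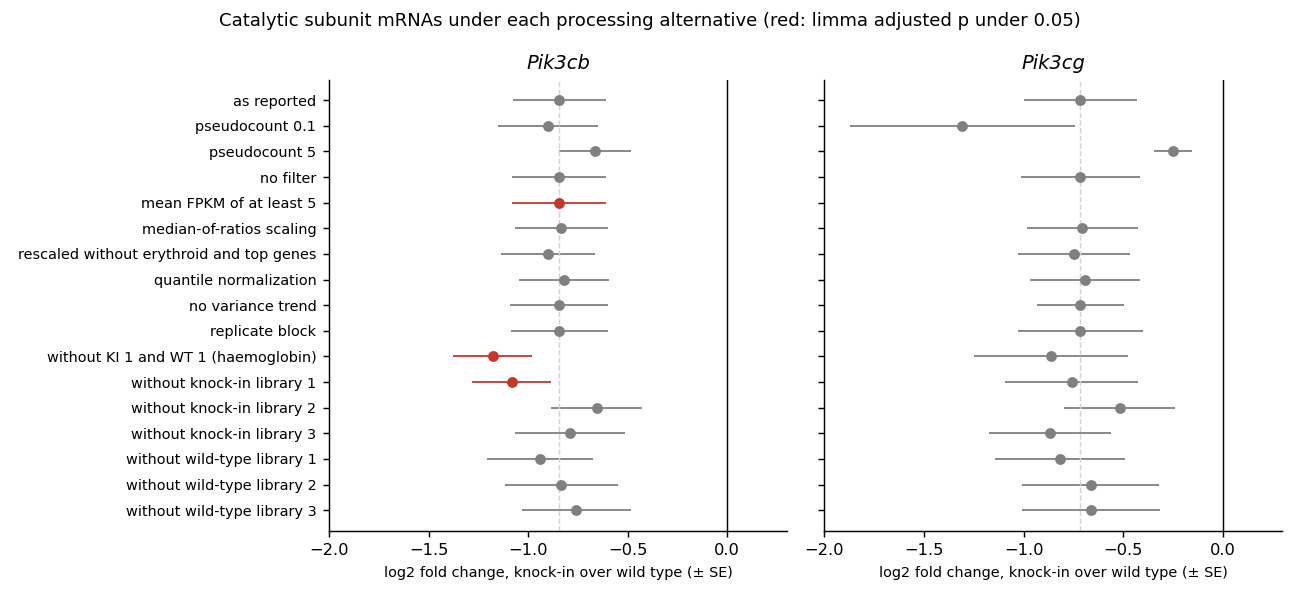
Log2 fold change, knock-in over wild type, of Pik3cb (left) and Pik3cg (right) under the reported setting and each alternative, with SE bars; red marks a limma adjusted p under 0.05, and Pik3cg has no value at a mean FPKM of at least 5 because its level is lower. Pik3cb stays between -1.18 and -0.66 and is red with the stricter filter of 5 FPKM, without knock-in library 1, and without libraries 1 of both groups; Pik3cg stays between -1.31 and -0.25 and is never red.

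Pik3cb and Pik3cg were lower in the knock-in under every setting fitted, while only the call of Pik3cb depended on the setting. Pik3cb kept its sign in all 16 alternatives, with limma adjusted p-values of 0.00655 to 0.186. Pik3cg did so in all 15 it could be fitted in, with 0.115 to 0.403. For both genes every knock-in value lay below every wild-type value. Left-out libraries, pseudocounts, filters, the variance trend and the block therefore could not turn the sign. Only the scalings could, so the kept sign is a description and no further evidence of a difference.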

How the data were processed

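Platelet RNA was sequenced in 6 libraries, 3 per genotype, which were grouped and numbered by sample title. Per the labels' protocols, TRIzol with a miRNeasy Micro kit gave the RNA, and SMART-Seq HT with Nextera XT gave the libraries, without marking strand. The authors deposited FPKM values, 1 table of gene symbols for each library. Cuffdiff 2.2.1 is named in the submitters' processing notes, beside TopHat2 2.1.1, Bowtie2 2.2.8 and the mm10 build, and SAMtools 0.1.18 is listed too. Their roles, settings and annotation are not given in the sources used here.

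Of 12260 symbols above 0 in any library, the 4859 whose mean over the 6 libraries reached 1 FPKM were tested. Values were transformed to log2(FPKM + 1) and fitted by genotype in limma 3.58.1 (R 4.3.3) with a variance trend, two-sided moderated tests and Benjamini-Hochberg adjustment to a threshold of 0.05. Fold changes are on that scale, which understates changes of low genes. The test was checked on simulated data. Relative depth came from the commonest ratio of values under 0.1 FPKM to wild-type library 1. The absolute estimate used 33 to 49 genes per library with 1 annotated transcript, in a window set after the values were seen, and fragments per gene assume the longest coding transcript. Gene positions are from GENCODE vM21. Shares within a family were compared by exact permutation.

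The genes, the lists and the tests were chosen with earlier results of these data known. Named were the 7 genes, pathway genes that passed, the 2 most abundant of each list, genes that enter a share, Itgb3, and for each of the 7 genes the 2 best correlated; predicted genes were left out of the last. Some single genes that the rule names, and 1 share, are not reported here but stay in the fits and counts. Alternatives were other pseudocounts, filters, scalings, no variance trend, a replicate block and left-out libraries.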

Additional observations from a re-analysis of the deposited data

How the results depend on the processing

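The number of genes called over the whole table, 406, was 107 with no filter, 0 without the variance trend, 728 without both libraries richest in haemoglobin mRNA (library 1 of each group), and 0 to 610 when 1 library was left out; the 0 arose without knock-in library 3, where 994 genes had an unadjusted p under 0.05 (1197 without the variance trend). Leaving out knock-in library 1 gave 610, knock-in library 2 gave 85, wild-type library 2 gave 41 and wild-type library 3 gave 113. Of the 7 genes, 0 passed as reported and 1, Pik3cb, with the stricter filter (mean of 5 FPKM or more) and without both haemoglobin-rich libraries, with 0 to 1 when 1 library was left out. The log2 fold change of Pik3cb was -0.84 at the stricter filter (limma adjusted p = 0.0453, fewer genes tested) and -1.18 without both haemoglobin-rich libraries (0.00655), and -1.08 to -0.66 with 1 library left out. Without both haemoglobin-rich libraries Akt1 was at -0.27 and Dapp1 at 0.056, opposite in sign to the reported values, as was Dapp1 with quantile normalization, at a log2 fold change of 0.034. With 1 library left out the log2 fold change of Akt1 ranged from -0.13 to 0.38, below 0 without wild-type library 1, and that of Dapp1 from -0.15 to 0.044, above 0 without wild-type library 1. Pik3cg (-0.87 to -0.52) and Akt2 (-0.32 to -0.11) kept their sign when 1 library was left out. For Pik3cg, as for Pik3cb, this was fixed in advance because the groups did not overlap. Pathway genes called, 2 as reported, were 1 with no filter, 5 with the stricter filter, 5 after rescaling without erythroid and top genes, 0 without the variance trend, 4 without both haemoglobin-rich libraries and 0 to 4 with 1 library left out. The share of Pik3cb differed by -4.36 to 1.57 points and that of Pik3r1 by -13.5 to 4.36 points with 1 library left out, and the share of Pik3r1 by 6.20 points without both haemoglobin-rich libraries. Scaling moved the median of all genes by less than 0.1 (-0.07 to -0.01). The causes of these changes were not tested beyond what each setting leaves out.

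The main fit did not pair samples by replicate number. Deviations from the group means correlated at 0.158, 0.0235 and 0.141 for numbers 1, 2 and 3, and not all exceeded 0.1. Between unlike numbers the correlations ran from -0.160 to 0.0674. With 3 libraries per group, centred on their own mean, such values cannot decide whether the numbers pair the samples. With the replicate block 306 genes, 0 of the 7 and 2 pathway genes were called, and Pik3cb stayed at -0.84 (limma adjusted p = 0.0800); the shares changed no call. The share of Pik3r5 in Pik3r5 + Pik3r6 was not computed because both were listed at 0 in wild-type library 1, and log2 fold changes of Pik3r1 and Pik3r5 exist only with no filter. Depth limits Pik3r5 and Pik3cd to single fragments and Pik3cg and Pik3r1 to low fragment numbers (at most 110 in any library).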

Other observations

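The mTORC2 complex, which phosphorylates Akt at its C-terminal tail, showed unequal subunit mRNA levels; its genes were named here after their values were seen. Mapkap1, the gene of its subunit Sin1, had 9.52, 9.87 and 14.5 FPKM in the knock-in and 18.8, 15.1 and 17.7 FPKM in the wild type, with groups that did not overlap (log2 fold change -0.58, limma adjusted p = 0.108). Rictor, the gene of its defining subunit, stayed at or below 0.195 FPKM in the knock-in and 0.114 FPKM in the wild type, and Mlst8 was above 0 in knock-in library 1 (0.240 FPKM) and wild-type library 3 (0.322 FPKM). Mtor, the gene of its kinase, was too low to be tested. It had 0.520, 0.0495 and 0.153 FPKM in the knock-in and 0.0124, 0.0470 and 0 FPKM in the wild type. By FPKM the groups did not overlap, with the knock-in higher. Multiplied by relative depth (1.0 and 1.05), however, the values of knock-in library 2 and wild-type library 2 were equal. They thus stood for the same number of fragments, and no difference in Mtor is read from these levels. Among all genes tested, 30.7% had groups that did not overlap in either direction. Prr5l, the gene of a further subunit, averaged 8.10 FPKM in the knock-in and 13.3 FPKM in the wild type. Its groups overlapped (log2 fold change -0.67, limma adjusted p = 0.154). Pdpk1, the gene of the kinase that phosphorylates the Akt activation loop, had 1.59, 1.15 and 1.38 FPKM in the knock-in and 1.29, 0.932 and 1.56 FPKM in the wild type, at a log2 fold change of 0.08 with a limma adjusted p of 0.887.

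Plcg2, a phospholipase C gene of the effector list named after its values were seen, had the highest log2 fold change among the 46 tested pathway genes, at 1.03 (SE 0.42, limma adjusted p = 0.167). Its values were 2.16, 3.88 and 5.06 FPKM in the knock-in and 1.37, 2.62 and 0.273 FPKM in the wild type, and the groups overlapped.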
